A study of Mus musculus with 16 samples.

Results

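The alpha class glutathione transferases were read from 6 rows of the count table chosen by name, Gsta1, Gsta2, Gsta3, Gsta4, Gm3776 and Gm10639, out of 33730 genes. All 6 passed the filter on low counts and were among the 16206 genes tested. RNA-seq was made from the livers of C57BL/6 mice in 4 groups of 4 libraries. The first group was Nrf2-/- (KO) mice given CDDO-Me (KO CDDO-Me), the second KO mice labelled as untreated (KO untreated), the third wild-type mice given CDDO-Me (WT CDDO-Me), and the fourth wild-type mice given the vehicle dimethyl sulfoxide (WT DMSO). CDDO-Me was dissolved in DMSO and injected into the peritoneum at 3 mg/kg, 24 h and 1 h ahead of partial hepatectomy. The vehicle dose was 1 µL of DMSO per g, and the tissue is the day 0 liver. The series' design text gives 4 animals per group, and the labels give no age, batch or date. The KO controls carry no vehicle label, so drug and vehicle cannot be told apart in KO CDDO-Me against KO untreated, nor genotype and vehicle in KO untreated against WT DMSO.

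Glutathione transferases join the tripeptide glutathione to electrophilic compounds, which makes them more soluble and easier to export. The alpha class is abundant in hepatocytes and also reduces lipid hydroperoxides. NRF2, encoded by Nfe2l2, is held in check by KEAP1, is released by electrophiles such as the triterpenoid CDDO-Me (bardoxolone methyl), and acts with small MAF proteins at antioxidant response elements. That element was originally described upstream of alpha class genes of rat and mouse.

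Of the members, 5 lie on mouse chromosome 9 within a single stretch. In GRCm38 these were Gsta4 (ENSMUSG00000032348, chr9:78182774-78209349, plus strand), Gsta1 (ENSMUSG00000074183, chr9:78230656-78242684, plus strand) and Gm3776 (ENSMUSG00000111709, chr9:78257129-78269166, plus strand). They were followed by Gm10639 (ENSMUSG00000074179, chr9:78289923-78305525, plus strand) and Gsta2 (ENSMUSG00000057933, chr9:78331018-78355788, minus strand). Gsta3 (ENSMUSG00000025934, chr1:21240589-21265661, plus strand) stands alone on chromosome 1. GENCODE M21 lists all 6 as protein coding. Mouse Gsta3 detoxifies the epoxide of aflatoxin B1, Gsta4 prefers 4-hydroxynonenal and related products of lipid peroxidation, and Gsta1 and Gsta2 are the inducible subunits.

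Gsta1, Gsta2, Gm3776 and Gm10639 are near-identical, and this bears on every value given for them singly. The coding sequences of Gm3776 and Gsta1 differed at 2 of 672 aligned bases (99.7% identity), by T25C and C591T, where the Gsta1 base comes first and positions count from the A of the start codon. Identity to Gsta1 was 97.9% for Gsta2 and 97.3% for Gm10639, against 75.3% for Gsta3 and 65.8% for Gsta4. Both stretches of 60 coding bases that hold the differences between Gsta1 and Gm3776 are shown for the 4 genes, with bases that differ from Gsta1 in capitals. They are taken from GENCODE M21 and run first from coding base 1 to 60 and then from 567 to 626 of Gsta1.
Gsta1, bases 1 to 60: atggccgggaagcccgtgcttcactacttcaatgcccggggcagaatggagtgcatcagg
Gm3776, bases 1 to 60: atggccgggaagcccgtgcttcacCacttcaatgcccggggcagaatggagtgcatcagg
Gm10639, bases 1 to 60: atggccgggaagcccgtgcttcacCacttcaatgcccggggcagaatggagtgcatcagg
Gsta2, bases 1 to 60: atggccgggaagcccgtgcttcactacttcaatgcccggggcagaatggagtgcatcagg
Gsta1, bases 567 to 626: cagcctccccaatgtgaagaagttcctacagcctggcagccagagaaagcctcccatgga
Gm3776, bases 567 to 626: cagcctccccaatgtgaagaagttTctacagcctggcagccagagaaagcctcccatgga
Gm10639, bases 567 to 626: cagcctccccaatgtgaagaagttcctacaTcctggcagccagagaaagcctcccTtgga
Gsta2, bases 567 to 626: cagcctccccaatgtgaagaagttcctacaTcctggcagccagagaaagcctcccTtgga

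In the first stretch Gm3776 and Gm10639 share the base that sets them apart from Gsta1, whereas Gsta2 is identical to Gsta1. In the second, Gm10639 and Gsta2 share both of their differences. Cut into every possible stretch of 150 bases, the read length, 68.4% of the stretches of Gsta1 transcripts, 77.7% of Gm3776, 22.7% of Gm10639 and 19.6% of Gsta2 also occurred in another gene, always another of these 4. No stretch of Gsta3 or Gsta4 did. The handling of reads that map to several genes is not given in the sources used here, so the counts of the 4 genes are uncertain singly, and their summed count is given beside them. If such reads were dropped, the sum would lack them as well.

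The start regions of the 4 genes are alike as well, and those of 5 members are in RefSeq's table for GRCm38.p6. Each window below runs from 250 bases before to 50 bases after the start site, on the gene's own strand. For Gsta2, on the minus strand, the window lies inside the gene span given above, which ends at 78355788. The RefSeq start site used for Gsta2 is thus not the outermost start in GENCODE. Capitals mark a match to the core of the antioxidant response element (TGACNNNGC) or to the core bound by the aryl hydrocarbon receptor (AhR, GCGTG). The 5 windows are printed because their owners' transcripts moved together or apart in the comparisons that follow.
Gsta1 (chr9:78230419-78230718): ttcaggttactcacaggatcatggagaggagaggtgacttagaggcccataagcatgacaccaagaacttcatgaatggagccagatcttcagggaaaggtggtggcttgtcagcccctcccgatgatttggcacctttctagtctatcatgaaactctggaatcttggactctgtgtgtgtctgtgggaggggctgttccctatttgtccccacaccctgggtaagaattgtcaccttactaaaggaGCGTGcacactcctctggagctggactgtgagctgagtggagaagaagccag
Gm3776 (chr9:78256879-78257178): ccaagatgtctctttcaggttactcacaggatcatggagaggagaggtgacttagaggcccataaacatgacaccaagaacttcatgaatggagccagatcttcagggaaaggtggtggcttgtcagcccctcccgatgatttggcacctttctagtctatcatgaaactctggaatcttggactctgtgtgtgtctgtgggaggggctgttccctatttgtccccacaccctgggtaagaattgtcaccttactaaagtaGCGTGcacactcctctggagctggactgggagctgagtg
Gm10639 (chr9:78289678-78289977): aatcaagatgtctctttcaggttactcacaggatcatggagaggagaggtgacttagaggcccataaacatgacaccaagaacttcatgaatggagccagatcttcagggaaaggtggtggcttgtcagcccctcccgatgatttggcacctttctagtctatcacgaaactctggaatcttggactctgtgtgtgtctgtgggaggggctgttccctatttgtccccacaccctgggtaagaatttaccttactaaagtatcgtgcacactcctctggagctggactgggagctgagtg
Gsta2 (chr9:78347096-78347395): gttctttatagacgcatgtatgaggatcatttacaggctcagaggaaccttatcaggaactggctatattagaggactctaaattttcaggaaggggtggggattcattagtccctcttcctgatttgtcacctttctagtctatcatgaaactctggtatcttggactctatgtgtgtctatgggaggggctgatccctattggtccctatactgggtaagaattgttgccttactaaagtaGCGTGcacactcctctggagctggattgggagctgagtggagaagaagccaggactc
Gsta3 (chr1:21240335-21240634): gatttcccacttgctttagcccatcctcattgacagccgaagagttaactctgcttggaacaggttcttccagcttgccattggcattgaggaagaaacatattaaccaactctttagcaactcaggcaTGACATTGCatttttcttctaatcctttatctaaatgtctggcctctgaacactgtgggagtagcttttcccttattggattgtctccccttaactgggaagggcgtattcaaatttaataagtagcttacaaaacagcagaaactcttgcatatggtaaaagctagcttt

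Over the aligned bases, the Gsta1 window was 99% identical to that of Gm3776, 97.9% to that of Gm10639 and 80.3% to that of Gsta2. Both strands were searched for each motif. The antioxidant core was found in the Gsta3 window alone, upstream of the start site, and 12.4% of 32851 promoters of the same length hold it. The AhR core was found in the windows of Gsta1, Gm3776 and Gsta2, and 32.4% of promoters hold it. The AP-1 site TGANTCA, held by 7.81% of promoters, was in none of the 5. A match is a description of these letters and not of binding. Sequence beyond the windows was not searched, so the absence of a match says nothing about elements farther from the start site.

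Total gene counts ran from 12002317 to 99284626 per library, the largest being WT CDDO-Me 1. Technical features divide the libraries. Nuclear ribosomal RNA genes made up 0.173 to 0.634% of all counts in 6 WT libraries (WT CDDO-Me 2 to 4, and WT DMSO 1 to 3), against at most 0.0368% in the other 10 libraries, which include all KO libraries. Genes typed in the annotation as intronic or TEC (transcripts not yet established by experiment) held 0.673 to 0.967% of counts in 4 libraries. These were KO untreated 1 and 2 and WT DMSO 1 and 2, which lay above every other library. They are called intron-rich below as a name only, since reads within the introns of genes were not measured. The targeted gene Nfe2l2 had 15.8 to 21.0 CPM in KO CDDO-Me, 19.9 to 51.7 CPM in KO untreated, 36.6 to 45.5 CPM in WT CDDO-Me and 42.8 to 74.9 CPM in WT DMSO. Its log2 fold change was -1.08 in KO CDDO-Me against WT CDDO-Me (edgeR adjusted p = 0.0283) and -0.90 in KO untreated against WT DMSO (edgeR adjusted p = 0.0969). The library labelled KO untreated 1, at 51.7 CPM, lay within the WT DMSO range. Reads outside the deleted part of a gene check nothing, and the labels do not say which exons were removed. All 8 hepatocyte markers were detected in every library, at 52620 to 124700 CPM in sum.

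In WT liver the drug raised 4 of the 6 members, namely Gsta1, Gm3776, Gsta2 and Gm10639, and in KO liver none passed the test. CPM are counts scaled to library size with TMM. Gsta1 had 75.1, 49.3, 96.8 and 44.7 CPM in WT CDDO-Me livers 1 to 4, against 3.00, 4.37, 4.28 and 3.08 CPM in WT DMSO livers 1 to 4. It had 0.324, 0.287, 0.223 and 0.378 CPM in KO CDDO-Me livers, against 0.203, 0.386, 0.802 and 1.41 CPM in KO untreated livers. The WT groups lay far apart and above both KO groups, and the KO groups overlapped. In WT the rise was 18.1-fold (log2 4.18, SE 0.37, edgeR adjusted p = 2.6e-05). Its 2 KO groups rest on 6 to 11 and 4 to 33 reads per library.

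Gm3776, the gene closest to Gsta1 in sequence, had 55.8, 38.6, 66.8 and 28.8 CPM in WT CDDO-Me livers, against 1.84, 2.57, 2.41 and 1.33 CPM in WT DMSO livers. It had 0.202, 0.144, 0.0637 and 0.241 CPM in KO CDDO-Me livers, against 0, 0.0965, 0.236 and 0.597 CPM in KO untreated livers. The count of 0 in KO untreated 1 allows up to 0.152 CPM (3 reads, for counting error only). The 4 WT CDDO-Me livers were all higher than the WT DMSO livers, by 23.5-fold (log2 4.56, SE 0.44, edgeR adjusted p = 3.24e-05).

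Gsta2 had 78.2, 36.8, 53.4 and 41.7 CPM in WT CDDO-Me livers, against 9.21, 9.02, 16.3 and 9.05 CPM in WT DMSO livers. It had 1.21, 1.25, 0.669 and 1.55 CPM in KO CDDO-Me livers, against 2.13, 2.41, 1.70 and 3.67 CPM in KO untreated livers. No group overlapped another for Gsta2. The WT rise was 4.83-fold (log2 2.27, SE 0.30, edgeR adjusted p = 0.000722).

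Gm10639 had 7.61, 11.5, 11.3 and 13.4 CPM in WT CDDO-Me livers, against 1.23, 1.11, 2.54 and 1.79 CPM in WT DMSO livers. It had 0.0809, 0.0479, 0.191 and 0.344 CPM in KO CDDO-Me livers, against 0.356, 0.338, 0.519 and 0.597 CPM in KO untreated livers. The KO CDDO-Me value of replicate 4 reached just into the KO untreated range, and the WT groups were separate. The WT rise was 6.50-fold (log2 2.70, SE 0.36, edgeR adjusted p = 0.000803).

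**Figure D1:**
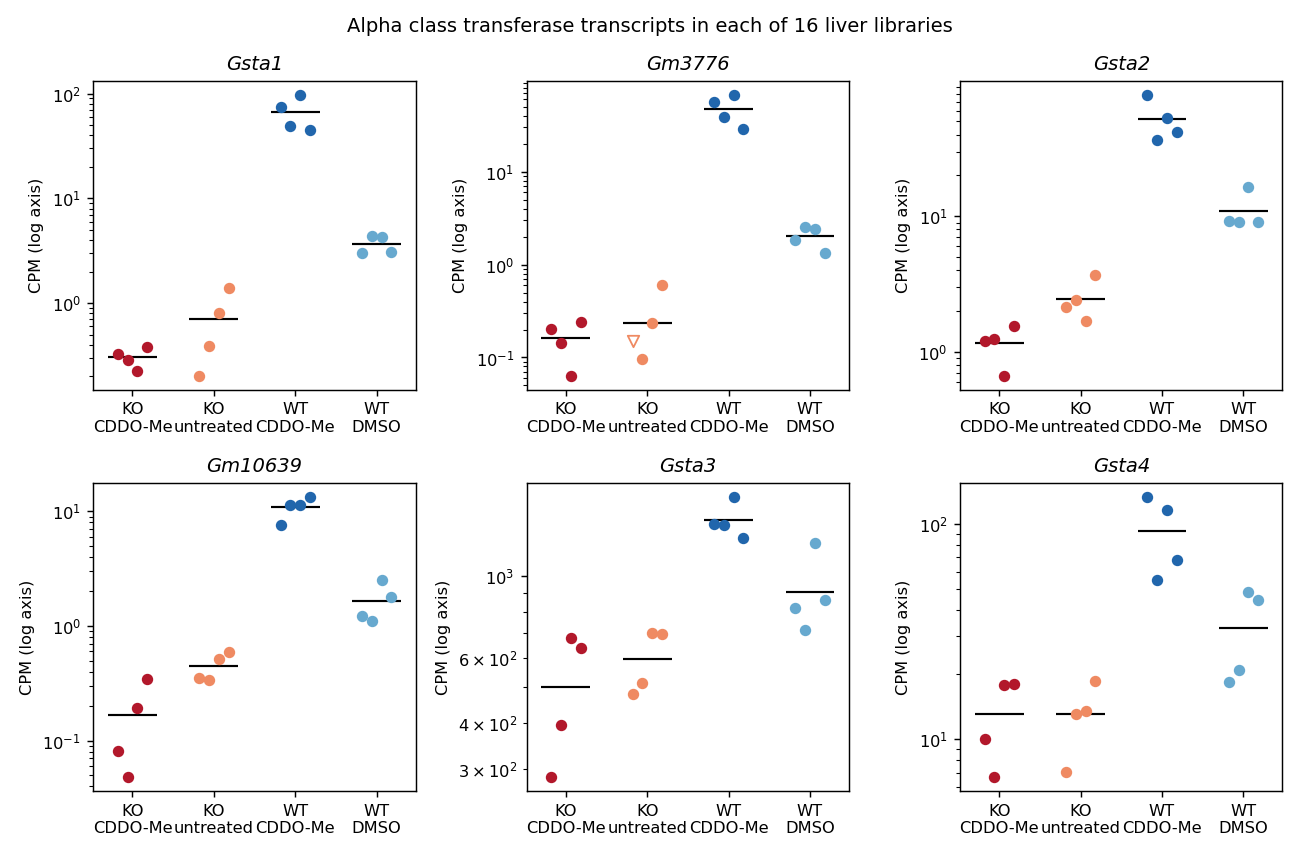
TMM-scaled CPM on a log axis for each member, with 1 point per library, 4 libraries per group and a line at each group mean. The open triangle marks the 3-read limit of 0.152 CPM for Gm3776 in KO untreated 1, where no read was counted. For Gsta1, Gm3776, Gsta2 and Gm10639 all WT CDDO-Me points lie above all WT DMSO points, which lie above both KO groups.

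Gsta3 and Gsta4, the members without near-identical partners, were not called in WT. Gsta3 had 1384, 1379, 1642 and 1269 CPM in WT CDDO-Me livers, against 819, 713, 1232 and 860 CPM in WT DMSO livers. It had 284, 394, 677 and 638 CPM in KO CDDO-Me livers, against 477, 512, 701 and 697 CPM in KO untreated livers. The WT CDDO-Me livers all stood above the WT DMSO livers, WT DMSO 3 being closest, while the KO groups overlapped. The WT difference of 0.65 log2 units (SE 0.27) did not pass the test (edgeR adjusted p = 0.277). Gsta4 had 134, 54.8, 116 and 68.1 CPM in WT CDDO-Me livers, against 18.4, 20.9, 48.0 and 44.3 CPM in WT DMSO livers. It had 9.996, 6.65, 17.8 and 18.0 CPM in KO CDDO-Me livers, against 7.06, 13.1, 13.5 and 18.7 CPM in KO untreated livers. Its WT groups did not overlap either, but the difference of 1.5 log2 units (SE 0.40) did not pass the test (edgeR adjusted p = 0.106). It passed with DESeq2 (1.49, adjusted p = 0.0147) and with the replicate block (1.61, edgeR adjusted p = 0.0376).

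For WT CDDO-Me against WT DMSO the count was thus 4 of 6 members called higher and 0 lower, where 0.555% of the 16206 genes tested were called higher and 0.728% either way. The median log2 fold change was 2.49 over the members and -0.02 over all genes tested. The summed count of the 4 near-identical genes averaged 177.5 ± 52.3 CPM in WT CDDO-Me and 18.3 ± 4.92 CPM in WT DMSO (SD, n = 4 each), a 9.71-fold rise (log2 3.28, SE 0.30, edgeR adjusted p = 3.71e-05). Within the 6 WT libraries high in nuclear ribosomal RNA, left after removing WT CDDO-Me 1 and WT DMSO 4, it was 3.09 (edgeR adjusted p = 0.000642). Among the 10 low libraries, which keep 1 library in each WT group, it was 3.83 (edgeR adjusted p = 0.0131), and Gm10639 alone lost its call there (2.08, edgeR adjusted p = 0.305). That last fit assumes that a lone library varies like the KO groups. Marker lists whose summed CPM did not overlap in the same comparison are given here, and those of the other lists overlapped. The 7 Kupffer cell markers summed to 397 to 550 CPM in WT CDDO-Me, against 173 to 243 CPM in WT DMSO, and 4 of the 7 were called higher. The 6 stellate cell markers summed to 402 to 451 CPM in WT CDDO-Me, against 195 to 350 CPM in WT DMSO, and 0 of the 6 were called. The 7 periportal hepatocyte markers summed to 9192 to 12250 CPM, against 13310 to 17760 CPM, and 1 of the 7 was called lower. Their part in the members' values was not tested, and in bulk tissue more RNA per cell and more cells of a type cannot be told apart.

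In KO liver edgeR called 0 of the 6 members with the drug, where it called 0.13% of all genes either way (0.105% higher and 0.0247% lower). DESeq2 called 0 as well, where it called 1.84% of all genes. The unadjusted edgeR p was under 0.05 for 3 members, all with negative values. These were Gsta1 (log2 -1.23, SE 0.48, edgeR adjusted p = 0.266), Gsta2 (-1.09, SE 0.33, edgeR adjusted p = 0.204) and Gm10639 (-1.36, SE 0.47, edgeR adjusted p = 0.233). Gm3776 differed by -0.58 (SE 0.70), Gsta3 by -0.26 (SE 0.26) and Gsta4 by 0.003 (SE 0.40) log2 units. The median was -0.84 over the members and -0.04 over all genes. The summed count of the near-identical genes averaged 1.8 ± 0.559 CPM in KO CDDO-Me and 3.86 ± 1.62 CPM in KO untreated (SD, n = 4 each), with log2 -1.11 (SE 0.31, edgeR adjusted p = 0.172). DESeq2 put that sum past the threshold (-1.09, adjusted p = 0.0411). Without KO untreated 4, its highest library, the value for Gsta1 was -0.62 and that for Gm3776 0.49 (edgeR adjusted p = 0.407 and 0.692). Without KO CDDO-Me 4 the value for Gm10639 was -1.95 (edgeR adjusted p = 0.174). Without the 4 intron-rich libraries Gsta1 was at -1.84 and Gm3776 at -1.35 (edgeR adjusted p = 0.167 and 0.558).

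The difference between the genotypes in their drug response passed the test for the same 4 members. WT response minus KO response was 5.41 log2 units for Gsta1 (SE 0.60, edgeR adjusted p = 0.000517), 5.13 for Gm3776 (SE 0.85, adjusted p = 0.0159), 4.06 for Gm10639 (SE 0.58, adjusted p = 0.00496) and 3.37 for Gsta2 (SE 0.44, adjusted p = 0.00241). It did not pass for Gsta4 (1.5, SE 0.56, edgeR adjusted p = 0.424) or Gsta3 (0.91, SE 0.37, edgeR adjusted p = 0.499). Of all genes tested, 0.13% were called with a larger response in WT. The value of the summed count was 4.39 (SE 0.43, edgeR adjusted p = 0.000151). The call of Gm3776 was lost without KO untreated 4 (4.07, edgeR adjusted p = 0.192) or KO untreated 3 (5.15, edgeR adjusted p = 0.0572), and that of Gm10639 among the 10 libraries low in ribosomal RNA (3.42, edgeR adjusted p = 0.108). Without KO untreated 4 the value of Gsta1 was 4.80, and without KO CDDO-Me 4 that of Gm10639 was 4.65, both still called by edgeR.

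**Figure D2:**
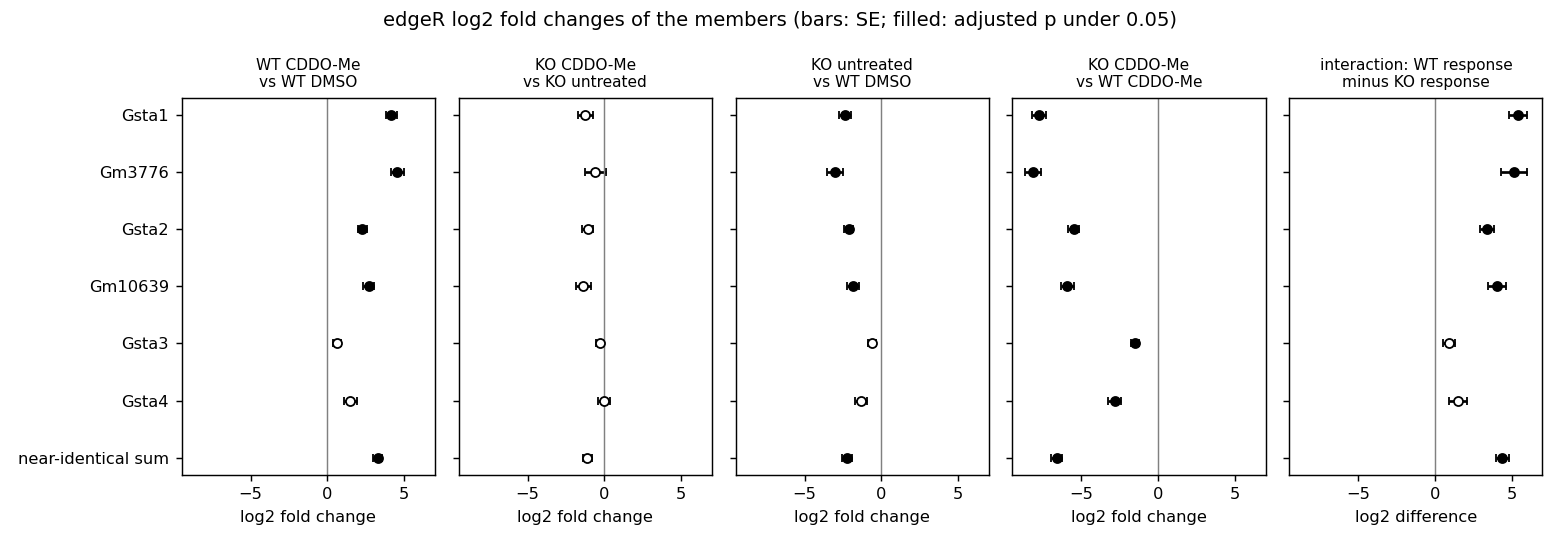
log2 fold changes from edgeR with standard errors for the 6 members and for the summed count of Gsta1, Gsta2, Gm3776 and Gm10639, in the 4 pairwise comparisons and the interaction. Filled points passed an adjusted p of 0.05. The 4 near-identical genes are filled in every panel except KO CDDO-Me vs KO untreated, and Gsta3 and Gsta4 are filled in KO CDDO-Me vs WT CDDO-Me alone.

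Without the drug, the same 4 members were lower in KO liver. In KO untreated against WT DMSO, 4 of 6 members were called lower, where 0.969% of all genes were called lower and 1.38% either way. The log2 fold changes were -3.03 for Gm3776 (SE 0.54, edgeR adjusted p = 0.0103), -2.35 for Gsta1 (SE 0.40, adjusted p = 0.00749), -2.13 for Gsta2 (SE 0.31, adjusted p = 0.00285) and -1.87 for Gm10639 (SE 0.40, adjusted p = 0.0274). Gsta4 (-1.33, SE 0.41, edgeR adjusted p = 0.123) and Gsta3 (-0.60, SE 0.27, edgeR adjusted p = 0.309) did not pass. Gsta4 passed with DESeq2 (-1.34, adjusted p = 0.0295), which called 5 of 6 members and 4.05% of all genes. The median was -2.0 over the members and 0.00 over all genes. The summed count averaged 3.86 ± 1.62 CPM in KO untreated and 18.3 ± 4.92 CPM in WT DMSO (SD, n = 4 each), 4.71-fold lower (log2 -2.24, SE 0.30, edgeR adjusted p = 0.00129).

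The count of called members in that comparison depended on the libraries used. Without the 4 intron-rich libraries it was 0, where 0.525% of all genes were called. The summed count was still called there, just under the threshold (edgeR adjusted p = 0.0473). Gm3776 was then at -2.13 (edgeR adjusted p = 0.102), Gsta1 at -1.74 (adjusted p = 0.0777), Gsta2 at -2.25 (adjusted p = 0.0558) and Gm10639 at -1.96 (adjusted p = 0.0881). With only KO untreated and WT DMSO in the fit it was 1, Gsta2, where 0.13% of all genes were called. Gm10639 lost its call when WT DMSO 3 or any 1 of the 4 KO untreated libraries was left out (edgeR adjusted p = 0.0509 to 0.0958). Without KO untreated 1, whose Nfe2l2 level lay in the WT range, Gsta1 was -2.06, Gsta2 -2.06 and Gm3776 -2.65, all still called by edgeR. Without KO untreated 4, Gsta1 was -2.96 and Gm3776 -4.10. All KO libraries were low in ribosomal RNA, so genotype and this feature are separable only through WT CDDO-Me 1 and WT DMSO 4. With the 10 low libraries 2 members kept their call, Gsta1 (-2.13, edgeR adjusted p = 0.0492) and Gsta2 (-1.89, edgeR adjusted p = 0.0135).

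Under the drug all 6 members were lower in KO than in WT liver, where 2.23% of all genes were called lower, 1.06% higher and 3.3% either way. Gm3776 was 286.7-fold lower in KO CDDO-Me when set against WT CDDO-Me (log2 -8.16, SE 0.55, edgeR adjusted p = 1.23e-07) and Gsta1 216.6-fold (log2 -7.76, SE 0.46, adjusted p = 4.43e-08). Gm10639 was 60.7-fold lower (log2 -5.93, SE 0.44, edgeR adjusted p = 2.97e-07) and Gsta2 45.1-fold (log2 -5.49, SE 0.35, adjusted p = 8.84e-08). The differences were smaller for Gsta4, at 7.09-fold (log2 -2.83, SE 0.42, edgeR adjusted p = 0.000895), and for Gsta3, at 2.85-fold (log2 -1.51, SE 0.27, edgeR adjusted p = 0.004). For all 6 the KO CDDO-Me range lay wholly below the WT CDDO-Me range. How many of all genes tested lay apart in this way was not counted, so that this is a description only. The summed count averaged 1.8 ± 0.559 CPM in KO CDDO-Me and 177.5 ± 52.3 CPM in WT CDDO-Me, 98.4-fold lower (log2 -6.62, SE 0.36, edgeR adjusted p = 4.42e-08). Among the 10 libraries low in ribosomal RNA it was -6.91 (edgeR adjusted p = 5.73e-05), whereas Gsta3 lost its call (-1.47, edgeR adjusted p = 0.253). Without KO CDDO-Me 4 the value for Gm10639 was -6.52, still called by edgeR. The periportal markers summed to 16370 to 18020 CPM in KO CDDO-Me, against 9192 to 12250 CPM in WT CDDO-Me, and 3 of the 7 were called higher. The stellate cell markers summed to 214 to 355 CPM, against 402 to 451 CPM, with 0 called. The 6 neutrophil and monocyte markers summed to 6.37 to 8.60 CPM in KO CDDO-Me, against 9.33 to 17.1 CPM in WT CDDO-Me, with 5 tested and 0 called. The 6 lymphocyte markers summed to 2.72 to 3.80 CPM in KO CDDO-Me, against 1.58 to 2.02 CPM in WT CDDO-Me, with 2 tested and 0 called. Their part in the members' values was not tested.

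Levels of different genes are compared in FPKM, the deposited values per kilobase of gene length. The length behind these values was 4344 bases for Gsta3, and ran from 874 (Gm3776) to 1266 (Gsta4) for the other members. Orders and shares in FPKM depend on these lengths, whereas fold changes of 1 gene do not. They depend also on how reads shared among the 4 near-identical genes were counted, which is not known. Were such reads dropped, Gsta1 and Gm3776 would lose more (68.4 and 77.7% of stretches shared) than Gsta2 and Gm10639 (19.6 and 22.7%). Gsta3 and Gsta4 would lose none, so the orders below that involve the 4 genes are uncertain. Gsta3 led in every group, with 112 FPKM in KO CDDO-Me, 153 in KO untreated, 296 in WT CDDO-Me and 207 in WT DMSO on average. Gsta4 came next, at 10.1, 11.3, 67.8 and 24.6 FPKM in the same order of groups. In both KO groups and in WT DMSO the order below was led by Gsta2, at 0.982 FPKM in KO CDDO-Me, 2.37 in KO untreated and 9.19 in WT DMSO, and it stood above Gsta1 in 4 of 4 libraries of each. In WT CDDO-Me the order changed. Gsta1 averaged 63.5 FPKM there, Gm3776 49.98 and Gsta2 41.4, and the ranges of Gsta4, Gsta1, Gm3776 and Gsta2 overlapped from each to the next, so these neighbours were not set apart by their spread. Gm10639 was lowest there at 9.02 FPKM, with a range below that of Gsta2. At the low end of the other groups, Gm3776 and Gm10639 overlapped and were in KO CDDO-Me each the higher in 2 of 4 libraries.

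Summed over the 6 members, the class reached 124 ± 44.9 FPKM in KO CDDO-Me, 168 ± 6.22 in KO untreated, 528 ± 141 in WT CDDO-Me and 248.5 ± 43.1 in WT DMSO (SD, n = 4 each). The 4 near-identical genes made up 1.47% ± 0.669 of that sum in KO CDDO-Me, 2.29% ± 0.649 in KO untreated, 30.4% ± 3.60 in WT CDDO-Me and 6.82% ± 1.05 in WT DMSO. Gsta3 held 90.3% ± 2.43, 91.0% ± 2.12, 57.2% ± 6.56 and 83.1% ± 2.78 in the same order. In the WT CDDO-Me livers Gsta3 held between 49.8 and 63.7% of the FPKM, below every library of the other groups. The longer length used for Gsta3 lowers its share. Any loss of shared reads would lower the share of the 4 near-identical genes. Without division by length, Gsta3 averaged 1418 CPM in WT CDDO-Me and the 4 near-identical genes 177.5 CPM in sum.

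**Figure D3:**
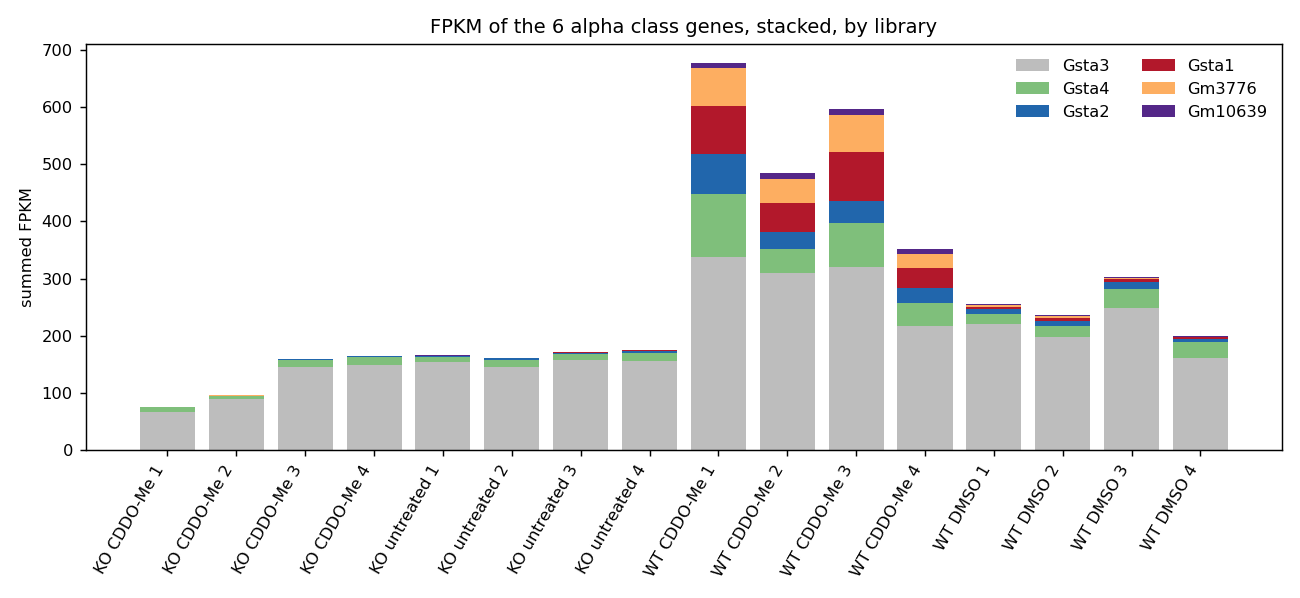
FPKM of the 6 members stacked in each of the 16 libraries, in the order KO CDDO-Me, KO untreated, WT CDDO-Me and WT DMSO. Gsta3 is the base of every bar, and the blue, red, orange and purple parts of the near-identical genes are wide in the 4 WT CDDO-Me libraries, where they make up 26.9 to 33.7% of the sum. The FPKM divide Gsta3 by 4344 bases and the other members by 874 to 1266.

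The ratio of a member to Gsta3 in the same library does not depend on library scaling. Of 20 such ratios and comparisons, 13 were called by an exact two-sided permutation test over samples, at an adjusted p of 0.044. That is the value given by the smallest p the design allows (0.0286 for 4 against 4). Gsta1 over Gsta3 was 0.247, 0.163, 0.268 and 0.160 in WT CDDO-Me livers 1 to 4, against 0.0167, 0.0279, 0.0158 and 0.0163 in WT DMSO livers. The ratio was 11.0-fold higher with the drug for Gsta1, 14.4-fold for Gm3776, 4.27-fold for Gm10639 and 3.00-fold for Gsta2, and all 4 were called (exact permutation test, p = 0.0286 each). Gsta4 over Gsta3 was 1.82-fold higher and not called (exact permutation p = 0.0571, adjusted p = 0.0762).

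In KO liver a single ratio was called. Gm10639 over Gsta3 was 0.00115, 0.000491, 0.00114 and 0.00218 in KO CDDO-Me livers 1 to 4, against 0.00301, 0.00267, 0.00299 and 0.00346 in KO untreated livers (exact permutation p = 0.0286, adjusted p = 0.044). The groups did not overlap, and the KO CDDO-Me values rest on 1 to 10 reads of Gm10639 per library. The ratios of Gsta1 and Gsta2 were 0.684 and 0.589 times those of KO untreated in KO CDDO-Me and were not called (exact permutation p = 0.343 and 0.2). In KO untreated against WT DMSO the ratio was called lower for Gsta1 (0.227 times), Gsta2 (0.341 times) and Gm10639 (0.420 times), with an exact permutation p of 0.0286 each. For Gm3776, which had no read in KO untreated 1, the 3 remaining libraries cannot pass (exact permutation p = 0.0571, the smallest possible). With a prior of 0.5 reads, which keeps all 4 libraries, the Gm3776 ratio was called lower (log2 -3.16, exact permutation adjusted p = 0.0408), and 14 of the 20 ratios were called. In KO CDDO-Me against WT CDDO-Me all 5 ratios were called lower, by the least for Gsta4 (0.418 times).

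**Figure D4:**
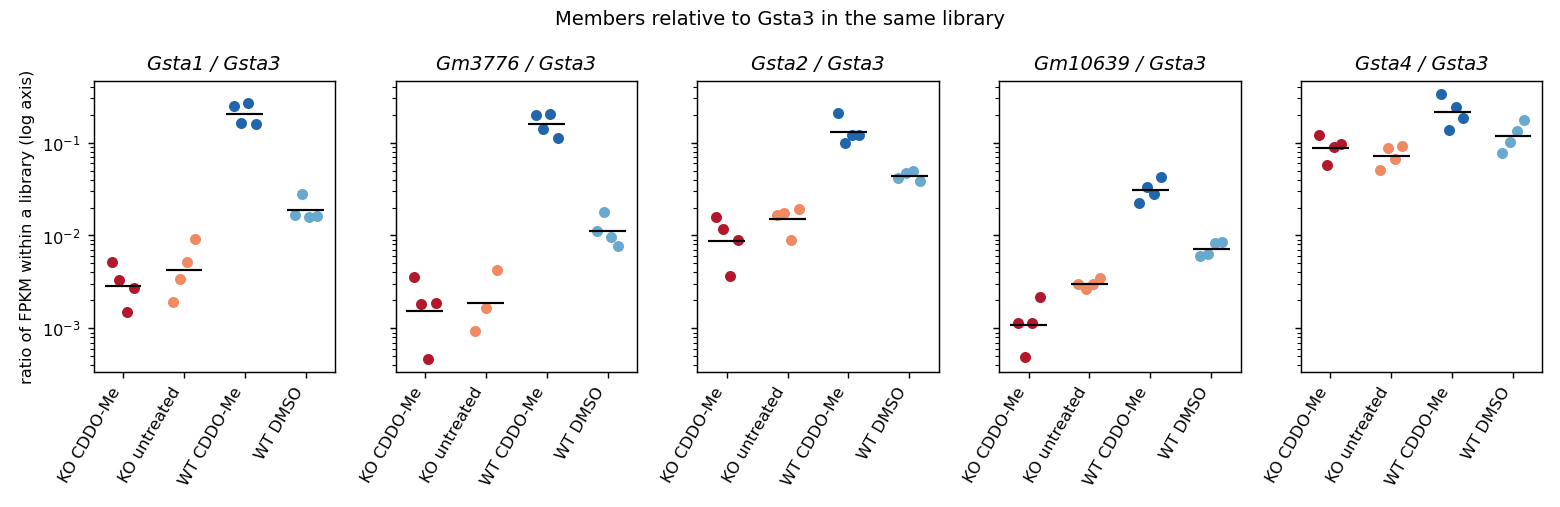
Ratio of FPKM to that of Gsta3 within each library, on a log axis, with a line at the geometric mean of each group. The Gm3776 ratio of 0 in KO untreated 1 is left out of the plot. WT CDDO-Me lies above WT DMSO without overlap for the 4 near-identical genes, and for Gm10639 KO CDDO-Me lies below KO untreated without overlap.

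The members also split by their profile over the 16 libraries, in which the size of the changes counts. Likeness is the root mean square difference of log2 CPM after centring each gene on its own mean, without scaling to the size of its changes. The libraries share the 4 groups, so that it is a description. Of all 16206 genes Gm3776 was nearest to Gsta1 (0.412 log2 units) and Gsta1 to Gm3776, a pair that shares most of its sequence. Gsta2 was nearest to Gm10639 (0.597). Outside the class, Gstm3 (0.575), Cyp2a4 (0.717) and Gstm1 (0.805) were nearest to Gsta1, and the same 3 genes were nearest to Gm3776. Gstm1 (0.584), Abcc3 (0.640) and Gstm3 (0.665) were nearest to Gsta2, and Gstm1 (0.630), Abcc3 (0.717) and Ces1g (0.743) to Gm10639. Cyp2a4, a cytochrome P450, was 20.2-fold higher in WT CDDO-Me than in WT DMSO (log2 4.34, SE 0.63, edgeR adjusted p = 0.00204). Abcc3, an export pump for conjugates, was 2.54-fold higher (log2 1.35, SE 0.22, edgeR adjusted p = 0.00621). Gsta4 was nearest to the glucuronosyltransferases Ugt2b5 (0.467) and Ugt2b36 (0.490) and to the pi class transferase Gstp1 (0.504). Gsta3 was nearest to Gbe1 (0.235), which branches glycogen, and to the aldehyde dehydrogenase Aldh3a2 (0.237), and its own class stood far down its order, Gsta4 at place 4375 and Gm3776 at place 16196. By this measure genes of small change lie near Gsta3. The log2 fold change of Gsta3 had the same sign as those of the near-identical genes in every pairwise comparison. It was called in KO CDDO-Me against WT CDDO-Me alone, and none of these genes was called in KO CDDO-Me against KO untreated.

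Related enzymes were counted from lists. Of 7 mu class transferases tested, 4 rose in WT CDDO-Me against WT DMSO and none passed in KO CDDO-Me against KO untreated. Of the same 7, 3 were lower in KO untreated than in WT DMSO, 4 were lower in KO CDDO-Me when set against WT CDDO-Me, and 2 had a called interaction. Gstm3 averaged 405.8 CPM in WT CDDO-Me and 39.9 CPM in WT DMSO (log2 3.35, edgeR adjusted p = 0.000174), and Gstm1 averaged 4842 CPM in WT CDDO-Me and 664.9 CPM in WT DMSO (log2 2.87, edgeR adjusted p = 5.04e-05). Of 12 transferases of other classes tested, 2 rose in WT with the drug, Gstp1 (log2 1.48, edgeR adjusted p = 0.0122) and Gstp2 (log2 1.45, edgeR adjusted p = 0.0304), none passed in KO with the drug or in KO untreated against WT DMSO, and the same 2 were lower in KO CDDO-Me when set against WT CDDO-Me.

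Of 11 genes of glutathione supply and breakdown, 2 rose in WT with the drug. One was Gclc, the catalytic subunit of the rate-limiting enzyme of glutathione synthesis (log2 2.13, edgeR adjusted p = 3.24e-05). None passed in KO with the drug or in KO untreated against WT DMSO, and 6 were lower in KO CDDO-Me when set against WT CDDO-Me, the largest difference being that of the cystine carrier Slc7a11 (log2 -5.02, SE 1.18, edgeR adjusted p = 0.0278). Of 11 classic NRF2 targets, 8 rose in WT with the drug, none passed in KO with the drug, 4 were lower in KO untreated than in WT DMSO and 9 were lower in KO CDDO-Me when set against WT CDDO-Me. The carbonyl reductase Cbr3 rose by 6.72 log2 units in WT (edgeR adjusted p = 1.49e-06) and the quinone reductase Nqo1 by 3.33 (edgeR adjusted p = 2.6e-05).

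Alpha class genes also respond to other receptors, whose targets were counted for comparison. Of 7 tested targets of CAR and PXR, receptors for drugs and steroids, none passed in WT with the drug, and 1, Cyp3a13, was lower in KO untreated than in WT DMSO (log2 -1.12, edgeR adjusted p = 0.0411). Of 4 tested targets of AhR, none passed in WT with the drug. Of these 4, 3 had positive values there, and the median log2 fold change was 0.8, against -0.02 over all genes. Cyp1a2 (log2 -2.12, edgeR adjusted p = 0.00303) and Cyp1a1 (log2 -1.81, edgeR adjusted p = 0.0363) were lower in KO CDDO-Me when set against WT CDDO-Me. Of 14 enzymes that handle aldehydes, the substrates of Gsta4, 2 rose in WT with the drug. One was Akr1b8 (log2 2.03, edgeR adjusted p = 7.81e-05). None passed in KO with the drug, and 6 were lower in KO CDDO-Me when set against WT CDDO-Me, among them Akr1b8 (log2 -2.79, edgeR adjusted p = 6.62e-07) and the retinal dehydrogenase Aldh1a1 (log2 -1.75, edgeR adjusted p = 0.0111).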

How the data were processed

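The 16 mouse liver RNA-seq libraries were grouped, 4 to a group, by the genotype and treatment labels and named by the replicate number of the titles. Per the labels' protocols, ribosomal RNA was depleted, libraries were directional, and paired reads of 150 bases were sequenced. The values the authors deposited as counts are whole numbers of reads for each gene, and 0 columns belong to other samples. The submitters' processing notes name the build GRCm38.p5, HTSeq 0.6.1p1, TopHat2 2.1.0, cutadapt 1.2.1, DESeq2 and CASAVA 1.8.2, with no role or order. What annotation release, strand setting and treatment of multiply mapped reads were used is not given in the sources used here. FPKM as the authors deposited them were checked, and for the members the table equals count over 1 length per gene and over the library total (largest relative deviation 7.3e-09). Nearly identical genes can lose or exchange reads in such counting.

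The members and lists were chosen with earlier results of these data known. All 6 members are given in every comparison. Beyond them, the text names Nfe2l2, the 3 nearest profiles of each member (log2 CPM, prior count 2), and at most 2 called genes per list with the largest change. One nearest profile of Gsta3 is not reported here. GENCODE M21 (GRCm38) matched 33586 of 33730 genes.

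Counts were tested with edgeR 4.0.16 in R 4.3.3 (quasi-likelihood, TMM, filterByExpr by group, 12 residual degrees of freedom) on all 16 libraries, with Benjamini-Hochberg adjustment over 16206 genes and a threshold of 0.05. The summed count of the 4 near-identical genes replaced their rows in a second fit. Ratios of FPKM were tested over samples by exact permutation in scipy 1.17.1 and adjusted over 20. The fit was tested on simulated data. Alternatives were DESeq2 1.42.0, its size factors in edgeR, no filter, the compared groups alone, the replicate block, each library left out, WT CDDO-Me 1 and WT DMSO 4 left out, the 4 intron-rich libraries left out, and limma 3.58.1 on log2(FPKM + 1) and log2(FPKM + 0.1). Chosen after seeing the data were the 10 libraries low in ribosomal RNA alone, WT CDDO-Me 1 thinned to the median depth, and the sum of Gsta1 and Gm3776.

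No pair of libraries within a group was a duplicate (lowest chi-square per degree of freedom 16.7). Pairs across groups were not checked. Same-numbered libraries of KO untreated and WT DMSO deviated together (correlations 0.37 to 0.48). Libraries of different numbers were not compared, and the intron-rich libraries carry numbers 1 and 2 in both groups. Whether the numbers mark pairs is therefore not known. In the other comparisons at least 1 pair did not exceed 0.1. P-values measure the spread between these samples. Motifs were searched on both strands.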

Additional observations from a re-analysis of the deposited data

Results flagged for a closer look

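The drug response differed between genotypes, by the interaction term of the edgeR fit, for 5 of the values examined. WT response minus KO response was 5.41 log2 units for Gsta1, 3.37 for Gsta2, 5.13 for Gm3776, 4.06 for Gm10639 and 4.39 for their summed count. The KO controls were labelled untreated and the WT controls DMSO, so a vehicle effect cannot be told apart from these differences.

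In 2 of 28 groups of 4 libraries, a library stood apart from the other 3 by Dixon's criterion, which chance meets in about 1 of 20 groups. Gsta2 was at 16.3 CPM in WT DMSO 3, and between 9.02 and 9.21 CPM in the other WT DMSO livers. The summed count of Gsta1, Gsta2, Gm3776 and Gm10639 was at 6.27 CPM in KO untreated 4, and between 2.69 and 3.26 CPM in the other KO untreated livers.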

How the results depend on the processing

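In KO untreated against WT DMSO, 4 members called became 5 with DESeq2, 1 with only the compared groups in the fit, 0 without the 4 intron-rich libraries and 2 with the 10 libraries low in ribosomal RNA. The fit on the compared groups has fewer residual degrees of freedom, and the last 2 have fewer samples. The summed count in KO CDDO-Me against KO untreated passed with DESeq2 alone (-1.09, adjusted p = 0.0411); the cause was not tested.

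All values that changed sign were uncalled and belong to KO CDDO-Me against KO untreated. Gsta4 (0.003) was -0.002 with only the compared groups, -0.081 with the replicate block, -0.27 without the intron-rich libraries, -0.21 and -0.24 with limma, and -0.21 to 0.23 over single libraries left out. Gm3776 (-0.58) ran from -0.96 to 0.49 over single libraries left out, and its ratio to Gsta3 (log2 -0.29) was 0.49 with a prior of 0.5 reads, 0.30 without KO untreated 4 and 0.28 without KO CDDO-Me 3. Ratios with a library left out were not tested again. The replicate block called Gsta4 in WT CDDO-Me against WT DMSO (1.61) and changed no other member's call. With limma on log2(FPKM + 0.1) the median log2 difference of all genes was -0.215 in KO CDDO-Me against KO untreated (-0.044 with edgeR) and 0.174 in KO untreated against WT DMSO (0.004 with edgeR).

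Depth limits the KO values of Gsta1, Gm3776 and Gm10639, which rest on 0 to 33 reads per library. Sequence sharing limits the single values of the 4 near-identical genes. If shared reads were dropped, it also limits the level of their sum and their share of the class.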

Other observations

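The spread between livers of a group differed among members and is described here without a test. Gsta1 had a coefficient of variation of 21.5% in KO CDDO-Me, 76.3% in KO untreated, 36.5% in WT CDDO-Me and 20.2% in WT DMSO. In KO untreated its reads were 4, 8, 17 and 33 in livers 1 to 4, and those of Gm3776 were 0, 2, 5 and 14, so that the intron-rich livers 1 and 2 were the lowest for both. The reads of Gsta2 in the same livers were 42, 50, 36 and 86 and followed another order. Gsta3 varied by 38.1% in KO CDDO-Me, where livers 1 and 2 had 284 and 394 CPM and livers 3 and 4 had 677 and 638 CPM, and Gsta4 had 9.996 and 6.65 CPM in livers 1 and 2 against 17.8 and 18.0 CPM in livers 3 and 4. In WT CDDO-Me, Gsta3 varied least, by 11.1%.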
